A study of Rattus norvegicus with 14 samples.

Results

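The ion channel genes of the rat aorta were taken as the rows of the deposited table whose gene name begins like that of a potassium channel (Kcn), a voltage-gated calcium channel (Cacn), a voltage-gated sodium channel (Scn), a transient receptor potential channel (Trpa, Trpc, Trpm, Trpv), a Clcn chloride channel or exchanger, an Hcn channel, a ryanodine receptor (Ryr) or an inositol trisphosphate receptor (Itpr). A row was kept when it reached 1 FPKM in at least 4 of the 14 libraries. FPKM are fragment counts corrected for the length of the transcript and the size of the library. Of 17019 genes in the table, 168 matched by name and 57 were kept, so the members were chosen by their measured level. Of the 111 that fell short, 32 were at 0 in all 14 libraries.

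The libraries hold polyadenylated RNA from the aortas of 14 male Dark Agouti rats, 1 library per rat. The control group had 5 rats (41, 42, 43, 44 and 46), the control group given vitamin D had 4 (36, 37, 38 and 39) and the uremic group had 5 (9, 17, 20, 27 and 28). Uremia followed 5/6 nephrectomy, an operation that takes away most of the kidney mass, and was followed for 14 weeks. All uremic rats were given alfacalcidol, a vitamin D prodrug, in 3 weekly doses of 30 ng over the closing 6 weeks. The labels give no dose and no length of treatment for the control rats on vitamin D, and no label says which rats ate the phosphate-rich diet that the series notes mention. A difference between uremic and control rats therefore covers surgery, uremia and vitamin D together, which cannot be told apart. Values of single rats are given below in the order of the rat numbers above.

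Ion channels set the membrane voltage of vascular smooth muscle and, through it, the entry of calcium that drives contraction. Voltage-gated calcium channels admit calcium when the membrane is depolarised, while potassium channels that open on depolarisation, on calcium or at rest pull the voltage back and relax the vessel. Transient receptor potential channels carry cations after stretch or receptor stimulation, and inositol trisphosphate and ryanodine receptors release calcium from the sarcoplasmic reticulum.

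The libraries looked like aortic media with surrounding tissue. The smooth muscle marker Myh11 (smooth muscle myosin heavy chain) was at least 1341.6 FPKM in every library, and 4 of 7 smooth muscle markers fell in uremic rats while none rose. The 8 heart muscle markers summed to 2.6 to 12.4 FPKM over all libraries, with Nppa at 0 throughout, and 1 of the 4 tested rose in uremic rats. The 8 skeletal muscle markers summed to 71.4 to 122 FPKM in control, 45.7 to 98.4 in control with vitamin D and 46.2 to 92.9 in uremic rats. Most of each sum was Acta1 (20.2 to 97.5 FPKM) and Tnnt3 (13.5 to 33.7). Ckm was at 1.70 to 4.84 FPKM in control rats. Mylpf, Tnni2 and Pvalb reached at most 1.84, 1.20 and 1.49 FPKM, and Myh4 and Actn3 at most 0.136 and 0.258. Of the 3 tested 2 fell, Acta1 and Ckm. Muscle of other kinds cannot be called absent. Its part in the members' levels was not tested. Macrophage markers, 5 of the 6 listed being in the table, all rose in uremic rats: their summed level was 29.4 to 83.7 FPKM in control, 35.1 to 77.3 in control with vitamin D and 293 to 417 in uremic rats. Adipocyte markers (5 of 5 in the table) were high in 3 of the 4 rats on vitamin D and in 1 of 5 rats of each other group. Their median log2 difference was 0.92 for vitamin D against control, -0.30 for uremic against control, where 1 of the 5 fell, and -1.24 for uremic against control with vitamin D, with no other call. Their sums were 4944.1 FPKM in control rat 46, 5924.8 in uremic rat 27 and 5415.6, 6154.7 and 6941.3 in rats 36, 37 and 38 on vitamin D, and 986 to 2462.4 in the other 9. Since the tissue was sequenced in bulk, fewer cells of a type and less RNA per cell cannot be told apart. Reads recovered from the FPKM steps summed to between 1363722 and 4624098 per library, and the median member had 40 reads per library, so members near 1 FPKM rest on few reads.

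The members fell into 12 classes. Of the name-matched rows, 4 of 11 calcium-activated potassium genes, 10 of 39 voltage-gated potassium pore genes and 5 of 13 of their partner subunits were members. So were 3 of 15 inward rectifiers, 3 of 13 two-pore domain potassium channels, 5 of 10 voltage-gated calcium pore genes and 5 of 16 of their partners. The remaining members were 5 of 14 voltage-gated sodium genes, 8 of 20 in the transient receptor potential group, 4 of 9 Clcn genes, 1 of 4 Hcn genes and all 4 calcium release genes in the table. One of the 8, Trpc4ap, matches by name but encodes a protein that binds TRPC4, not a channel.

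At the lower edge of the threshold stood Hcn2, a pacemaker-type cation channel that reached 1 FPKM in 4 libraries, and Kcng2 and Kcnj15, which did so in 5. Just outside stood Trpv4, a stretch-linked cation channel, at 1 FPKM in 3 libraries, all uremic, and Cacnb4, Kcnf1, Kcnj12, Kcnmb4, Kcnt2 and Trpm2 in 2. Kcnn4, Kcnk2, Kcnj15, Kcne3 and Hcn2 were members only because of the uremic libraries, Kcnd3 and Hcn2 only because of the control libraries, and Clcn4 and Kcng2 only because of the control libraries with vitamin D. For these the direction is in part set by the choice, so their levels are given below as a description and no p-value is given for their rise or fall. The other 49 members would pass without any one of the groups.

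**Figure D1:**
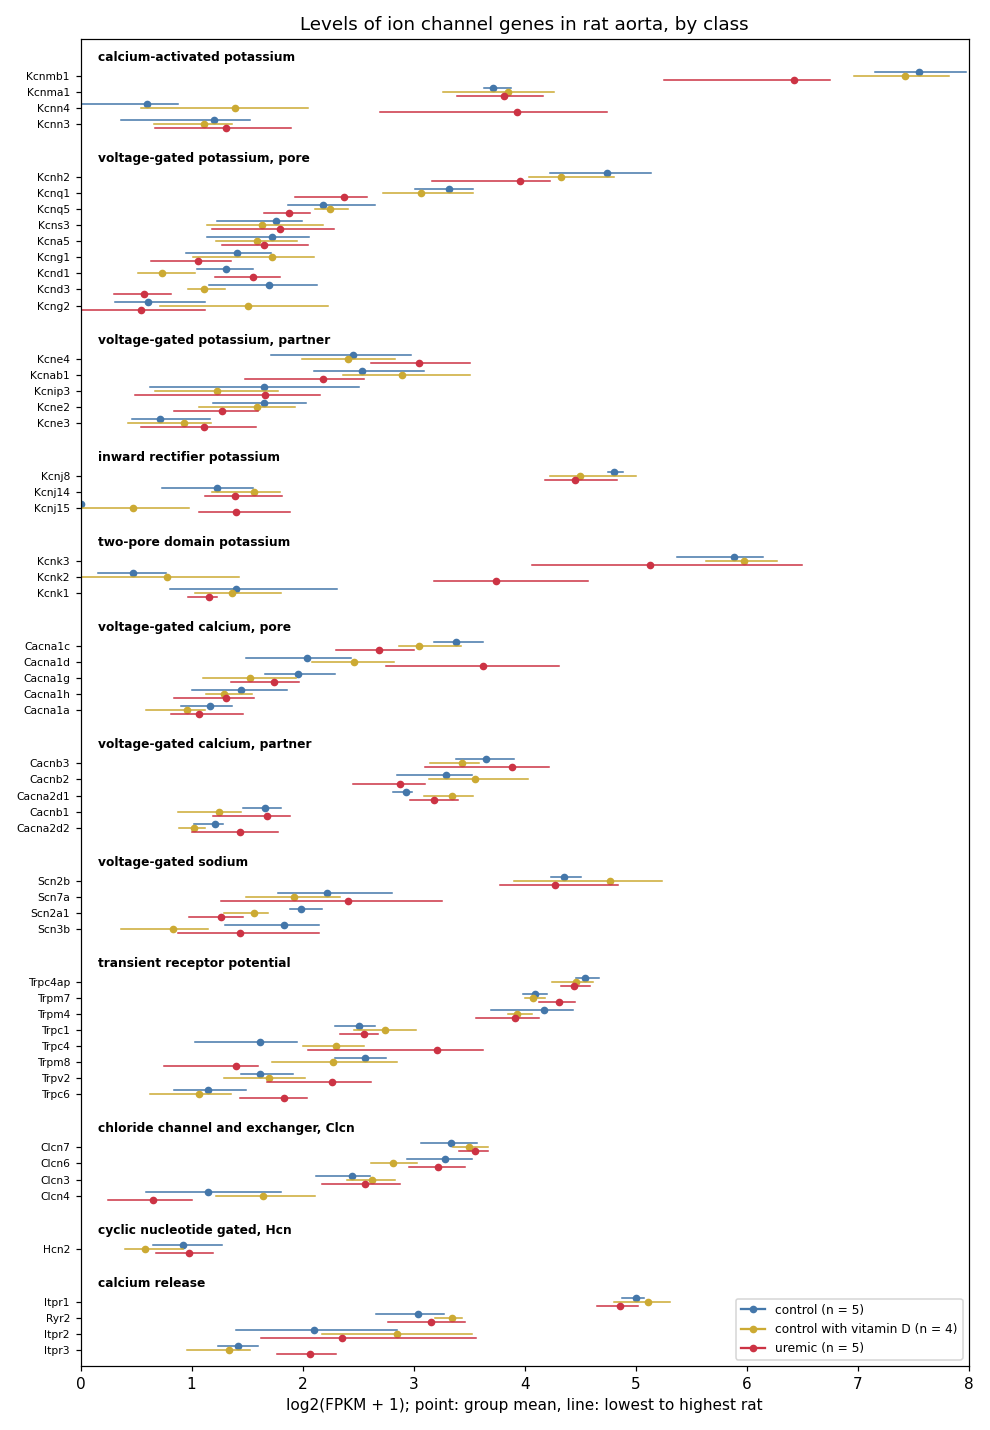
Mean level of the members described, by class, as log2(FPKM + 1), with a line from the lowest to the highest rat for control (n = 5), control with vitamin D (n = 4) and uremic (n = 5). Kcnmb1 is the most abundant member in all 3 groups, and most members lie under 10 FPKM.

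Kcnmb1, which encodes the β1 subunit that makes the large-conductance calcium-activated (BK) potassium channel more sensitive to calcium, was the most abundant member. It was followed in control rats by Kcnk3 at 58.3 ± 10.9 FPKM (SD, n = 5). The 4 calcium-activated potassium genes together held 32.9% of the FPKM of all members in control rats (28.5% to 38.8% in single rats), 31.2% in control rats on vitamin D (25.4% to 36.4%) and 22.8% in uremic rats (13.3% to 27.0%). The members together summed to 606 ± 47.2 FPKM (SD, n = 5) in control rats, 591 ± 61.5 (SD, n = 4) in control rats on vitamin D and 494 ± 35.1 (SD, n = 5) in uremic rats.

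To see whether uremia with vitamin D moved the channels, uremic rats were first compared with control rats by limma on log2(FPKM + 1), with p-values adjusted by Benjamini and Hochberg over all 9957 genes tested and a call at an adjusted p under 0.05. Nothing in the labels says more than that the rats were separate animals. Each rat was therefore 1 replicate, and the group difference was tested against the spread between rats. Among the 49 members that pass without any one group, 4 rose (Trpc4, Trpc6, Cacna1d and Itpr3) and 7 fell (among them Kcnmb1, Kcnh2, Kcnq1, Cacna1c, Scn2a1 and Trpm8). Over all genes 11.4% rose and 10.5% fell, so the members' shares were near the background. With the members that needed 1 group to pass, 55 were tested, and 7 were called higher (also Kcnn4, Kcnk2 and Kcnj15) and 8 lower (also Kcnd3). For Kcnn4, Kcnk2, Kcnj15 and Kcnd3 the direction is in part set by the choice, also in the counts over the 55 below. With libraries scaled to the same total FPKM, 7 members rose and 11 fell, and over all genes 835 rose and 1584 fell, against 1131 and 1046 without that scaling. The median difference over the members was 0.01 on the log2 scale, against 0.00 over all genes. The groups did not overlap in 13 of the 55, against 15.7% of all genes tested. Among those 13 were 13 of the 15 called members. Trpc6 was called with overlap.

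Within the BK channel the 2 subunits went separate ways. Kcnmb1 was at 251, 169, 193, 178 and 142 FPKM in control rats, 200, 124, 133 and 225 in control rats on vitamin D and 107, 88.0, 91.5, 37.3 and 99.9 in uremic rats. Each uremic rat was below each rat of the other groups, and uremic rat 27 was lowest. The control mean was 2.20 times the uremic mean (log2 difference -1.19, SE 0.25, limma adjusted p = 0.00529). The pore gene Kcnma1 was at 11.4, 13.7, 12.6, 11.5 and 11.6 FPKM in control rats, 13.9, 8.59, 13.0 and 18.2 in control rats on vitamin D and 9.46, 16.9, 14.0, 11.0 and 14.2 in uremic rats. These ranges overlapped, and the difference was 0.08 (SE 0.15, limma adjusted p = 0.74), or -0.03 with libraries scaled to the same total.

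The ratio of Kcnmb1 to Kcnma1 within a library was 12.3 to 22.0 in control rats and 3.40 to 11.3 in uremic rats. Its log2 value was 3.91 ± 0.34 (SD, n = 5) in control, 3.66 ± 0.23 (SD, n = 4) in control with vitamin D and 2.63 ± 0.63 (SD, n = 5) in uremic rats. The difference between uremic and control rats was -1.28, with p = 0.0079 by an exact 2-sided permutation test, the smallest that these group sizes allow, and an adjusted p of 0.0278 over 21 tests (7 ratios in 3 comparisons). Against control rats on vitamin D the ratio differed by -1.04 (exact permutation p = 0.024, adjusted p = 0.05, which is not under the threshold). In the rn5 annotation of the table, Kcnmb1 lies at chr10:18443845-18821334, a locus it shares with Kcnip1, whose mean was 0.248 FPKM. How reads were divided between the pair is not given in the sources used here.

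The 300 bases around the start of 4 genes (250 before and 50 after, RefSeq, build GRCr8) are shown because they belong to the 2 channel families whose members separated, BK (Kcnmb1 and Kcnma1) and L-type calcium (Cacna1c and Cacna1d, described below). Capitals mark GGGCGG or its reverse complement, the GC box that SP-family factors bind.
Kcnmb1, chr10:19061849-19062148, plus strand: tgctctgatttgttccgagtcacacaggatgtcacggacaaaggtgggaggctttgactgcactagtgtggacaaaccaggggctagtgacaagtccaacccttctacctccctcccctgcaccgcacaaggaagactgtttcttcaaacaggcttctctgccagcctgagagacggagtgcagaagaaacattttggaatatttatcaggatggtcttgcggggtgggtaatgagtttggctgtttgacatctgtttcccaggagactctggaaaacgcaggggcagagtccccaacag
Kcnma1, chr15:351675-351974, plus strand: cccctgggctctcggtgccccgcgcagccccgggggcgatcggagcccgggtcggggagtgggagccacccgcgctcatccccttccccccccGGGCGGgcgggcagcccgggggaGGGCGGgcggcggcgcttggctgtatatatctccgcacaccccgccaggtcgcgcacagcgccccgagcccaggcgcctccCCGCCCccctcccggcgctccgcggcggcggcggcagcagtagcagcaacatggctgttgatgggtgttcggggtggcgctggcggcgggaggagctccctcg
Cacna1c, chr4:154051699-154051998, minus strand: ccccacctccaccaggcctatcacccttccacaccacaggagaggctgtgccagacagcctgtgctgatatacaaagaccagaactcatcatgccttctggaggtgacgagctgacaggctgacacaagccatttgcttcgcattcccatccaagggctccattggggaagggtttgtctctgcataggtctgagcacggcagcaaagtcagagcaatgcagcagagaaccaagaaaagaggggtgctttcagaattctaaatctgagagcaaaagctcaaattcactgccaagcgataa
Cacna1d, chr16:5527500-5527799, minus strand: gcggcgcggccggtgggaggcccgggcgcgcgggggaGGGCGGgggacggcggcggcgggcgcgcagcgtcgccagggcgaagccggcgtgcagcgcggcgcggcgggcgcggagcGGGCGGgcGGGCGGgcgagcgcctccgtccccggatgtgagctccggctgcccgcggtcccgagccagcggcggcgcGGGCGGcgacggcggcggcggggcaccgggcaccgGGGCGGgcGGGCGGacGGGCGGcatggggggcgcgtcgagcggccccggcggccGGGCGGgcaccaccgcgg

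Kcnmb1 and Cacna1c, both lower in uremic rats, had no GC box and 6 and 4 CpG dinucleotides in this window. Kcnma1 and Cacna1d had 3 and 8 GC boxes and 38 and 66 CpG. Of the 57 members, 41 had a promoter in the RefSeq table by symbol, 5 of them more than one. A GC box on either strand was in 24 of these 41 (58.5%), against 33.1% of all 33469 promoters. By response to uremia it was in 2 of 6 members that rose, 1 of 4 that fell and 21 of 31 not called. This split is a description, since it includes members that needed 1 group to pass, among them Kcnk2, Kcnj15 and Kcnd3. CACGTG, an E-box, was in 6 of the 41 (14.6%; 6.42% of all promoters), among them Itpr3. The CArG box bound by serum response factor and TGANTCA, the AP-1 site, were in none of the 41, against 1.64% and 7.33% of all promoters. Both strands were searched, and none of these motifs is contained in another. The members were chosen by level and are counted by gene, while all promoters were not chosen by level and are counted singly. The members' median was 21 CpG in this window, against 7 over all promoters. The shares therefore compare unlike sets and do not say whether a motif is particular to channel genes. A match is a description and no site of binding, and a window without a match says nothing of the factor.

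Kcnn4, the intermediate-conductance calcium-activated potassium channel of endothelium, immune cells and proliferating smooth muscle, was at 0.829, 0.361, 0.554, 0 and 0.832 FPKM in control rats, 1.95, 3.14, 0.940 and 0.457 in control rats on vitamin D and 20.0, 5.50, 11.6, 8.66 and 25.8 in uremic rats. The lowest uremic rat was above all others. The mean of 14.3 ± 8.38 FPKM (SD, n = 5) was 27.8 times that of control rats and 8.82 times that of control rats on vitamin D. Its ratio to Kcnma1 had a median of 0.0441 in control rats, 0.106 in control rats on vitamin D and 0.825 in uremic rats, where 2 rats had more Kcnn4 than Kcnma1. The 5 macrophage markers given above rose in the same rats, and their part in the level of Kcnn4 was not tested. The last of the 4 genes, Kcnn3, a small-conductance channel, was 0.286 to 2.71 FPKM over all rats and did not pass the test (limma adjusted p = 0.876).

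**Figure D2:**
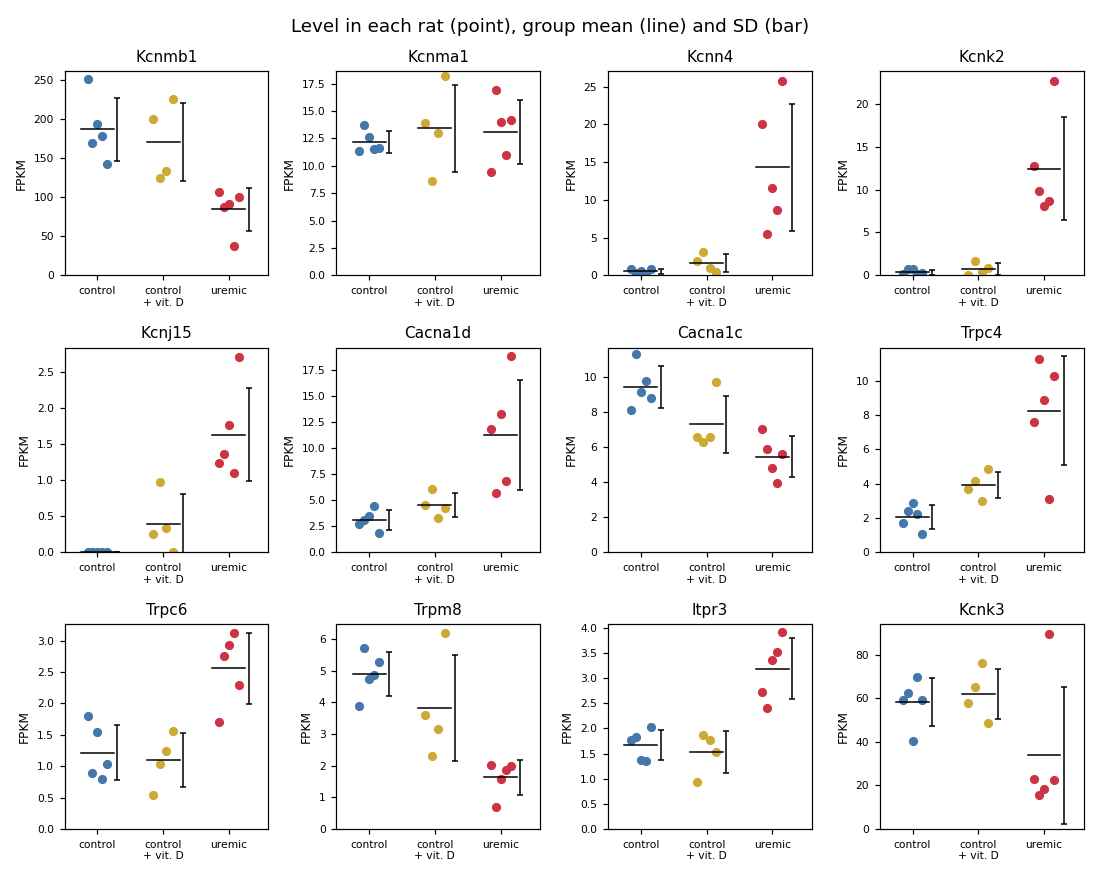
Level in FPKM of 12 members in each rat (points) of the control, control with vitamin D and uremic groups, with the group mean (line) and SD (bar). Kcnmb1, Cacna1c and Trpm8 are lower and Kcnn4, Kcnk2, Kcnj15, Cacna1d, Trpc4 and Itpr3 higher in all uremic than in all control rats, while Kcnma1 overlaps and 1 uremic rat stands apart in Kcnk3.

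Voltage-gated potassium channels, which open on depolarisation, contributed 4 falls and no rise among 9 pore genes tested, where 10.5% of all genes fell and 11.4% rose. Kcnd3, 1 of the 4, needed the control libraries to pass. Its fall is in part set by the choice, so the count of 4 is a description. The median difference of the 9, Kcnd3 included, was -0.35, against 0.00 over all genes. These few genes are not called different from the rest. Their summed level was 52.7 ± 6.78 FPKM (SD, n = 5) in control, 44.7 ± 5.42 (SD, n = 4) in control with vitamin D and 31.7 ± 4.24 (SD, n = 5) in uremic rats. Kcnh2, the channel behind the fast delayed rectifier current of the heart (ERG), was the most abundant, at 30.2, 24.1, 17.7, 34.2 and 22.9 FPKM in control rats, 18.1, 15.4, 16.1 and 27.0 in control rats on vitamin D and 17.7, 17.6, 15.6, 7.96 and 13.5 in uremic rats. No uremic rat exceeded the lowest control rat, though 2 came close to it. The log2 difference was -0.81 (SE 0.22, limma adjusted p = 0.0186).

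Kcnq1, a KCNQ channel whose openers relax arteries, was at 10.6, 8.20, 9.70, 9.35 and 7.05 FPKM in control rats, 5.60, 6.70, 6.47 and 10.6 in control rats on vitamin D and 4.99, 2.81, 4.87, 3.25 and 4.97 in uremic rats. All uremic rats were below all other rats. The control mean was 2.15 times the uremic mean (log2 difference -0.96, SE 0.17, limma adjusted p = 0.0015). Its relative Kcnq5, also a channel of arterial muscle, was at 2.64, 2.72, 5.30, 4.17 and 2.84 FPKM in control rats, 3.35, 4.30, 3.31 and 4.06 in control rats on vitamin D and 2.22, 3.19, 2.66, 2.14 and 3.17 in uremic rats, with overlapping groups (limma adjusted p = 0.31).

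The A-type channel Kcnd3, which gives a fast inactivating current, was at 2.87, 1.99, 3.37, 1.75 and 1.23 FPKM in control rats, 0.959, 1.23, 1.46 and 1.01 in control rats on vitamin D and 0.234, 0.452, 0.629, 0.761 and 0.353 in uremic rats, so that no uremic rat reached 1 FPKM. Kcnmb1, Kcnh2, Kcnq1, Cacna1c, Scn2a1, Trpm8, Trpc4, Trpc6, Cacna1d and Itpr3 kept their calls against control when any 1 rat was left out.

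Kcna5, a Shaker-type pore long studied in arteries, differed little, at 3.17, 1.90, 2.12, 3.17 and 1.20 FPKM in control rats, 1.66, 1.33, 2.87 and 2.19 in control rats on vitamin D and 1.42, 3.13, 1.63, 2.78 and 1.78 in uremic rats (limma adjusted p = 0.861). It rested on 5 to 37 reads per library. The silent subunits Kcns3 and Kcng1 and the A-type channel Kcnd1 did not pass the test in this comparison (adjusted p 0.975, 0.257 and 0.35), and Kcng2 was not tested. None of the 5 partner subunits (Kcnab1, Kcne2, Kcne3, Kcne4 and Kcnip3) passed either. Among them Kcne4, which modulates KCNQ channels, had the largest difference, at 2.29 to 6.88 FPKM in control and 5.11 to 10.4 in uremic rats (log2 difference 0.63, limma adjusted p = 0.0721). Without control rat 46 it passed (adjusted p = 0.0275), but it stayed uncalled in 19 of 21 alternatives.

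Of the inward rectifiers, Kcnj8, the pore of the vascular ATP-sensitive potassium channel, was at 26.2, 26.8, 25.9, 28.5 and 27.2 FPKM in control rats, 18.8, 31.1, 18.6 and 17.8 in control rats on vitamin D and 22.3, 17.2, 27.4, 18.9 and 18.8 in uremic rats. The control rats were close together and 1 uremic rat, 20, lay among them. The difference of -0.37 missed the threshold (SE 0.12, limma adjusted p = 0.0522) and passed it without uremic rat 20 (adjusted p = 0.0135), with libraries scaled to the same total (-0.47, adjusted p = 0.0171) and with a filter of 5 FPKM (adjusted p = 0.048). Kcnj8 stayed uncalled in 18 of 21 alternatives. Its sulfonylurea receptor Abcc9, a regulatory subunit, fell (46.0 to 75.2 FPKM in control and 36.1 to 47.5 in uremic rats, log2 difference -0.45, limma adjusted p = 0.0475). The ratio of Abcc9 to Kcnj8 differed by -0.08 on the log2 scale (exact permutation p = 0.7, adjusted p = 0.758).

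Kcnj15, an inward rectifier known from kidney and other epithelia, was listed at 0 in all 5 control rats. It was at 0.253, 0.971, 0.332 and 0 FPKM in control rats on vitamin D and 1.23, 1.36, 1.76, 1.10 and 2.70 in uremic rats, all of which were above the rest. It rested on at most 15 reads per library. Kcnj14, the third inward rectifier, did not pass the test (limma adjusted p = 0.574).

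The two-pore domain channels carry potassium at rest. Kcnk2 (TREK-1), opened by stretch and by fatty acids, was at 0.114, 0.699, 0.700, 0.140 and 0.263 FPKM in control rats, 0, 1.69, 0.360 and 0.819 in control rats on vitamin D and 12.7, 9.86, 8.10, 8.70 and 22.7 in uremic rats. The lowest uremic rat was several times above the highest other rat. The uremic mean of 12.4 ± 6.02 FPKM (SD, n = 5) was 32.4 times the control mean and 17.3 times that of control rats on vitamin D.

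Kcnk3 (TASK-1), closed by acid, was the second most abundant member in control rats, but not in uremic rats. It was at 59.1, 62.6, 40.4, 70.0 and 59.4 FPKM in control rats, 57.9, 65.3, 76.2 and 48.7 in control rats on vitamin D and 22.8, 15.8, 18.4, 89.6 and 22.6 in uremic rats. Of the uremic rats 4 were below every rat of the other groups and rat 27 was above all 13 others. The difference from control missed the threshold (log2 difference -1.07, SE 0.37, limma adjusted p = 0.0551). With all rats kept it passed with libraries scaled to the same total (adjusted p = 0.0472), in 1 fit of all 3 groups (adjusted p = 0.0344) and with array weights (adjusted p = 0.00474). The difference stayed uncalled in 16 of 21 alternatives. Without rat 27 it was -1.50 with an adjusted p of 5.85e-05. In the same rat the 5 adipocyte markers summed to 5924.8 FPKM against 986 to 2400.4 in the other uremic rats. Its recovered reads for Kcnk3 numbered 1344 against 80 to 172. Rat 27 also had the most recovered reads over all genes, 4624098 against 1687290 to 2480815 in the other uremic rats. The gap in Kcnk3 reads is therefore in part one of depth, for which FPKM is corrected. The part of adipose tissue in the Kcnk3 value of rat 27 was not tested. Kcnk1, also a resting channel, did not pass (limma adjusted p = 0.778).

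**Figure D3:**
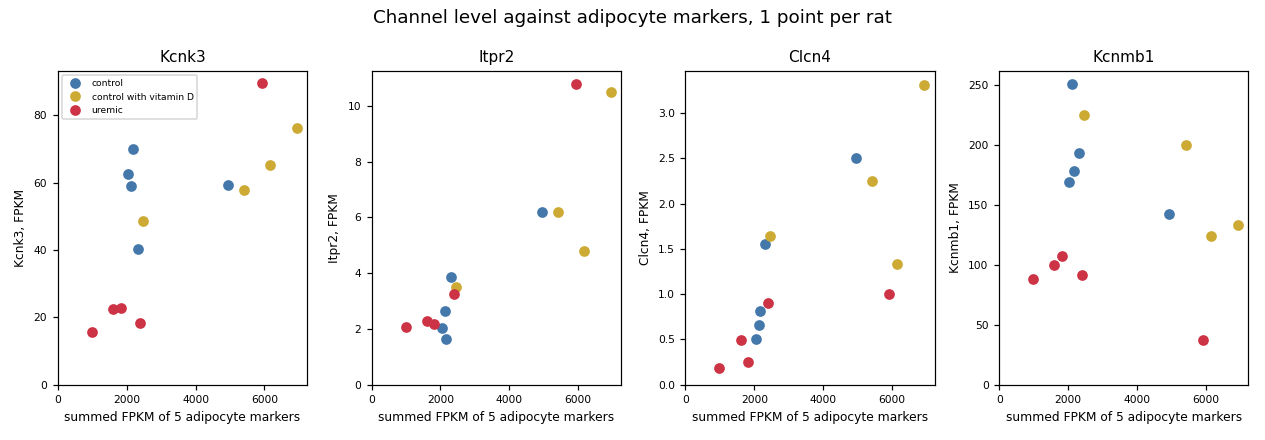
FPKM of Kcnk3, Itpr2, Clcn4 and Kcnmb1 against the summed FPKM of 5 adipocyte markers, 1 point per rat, coloured by group. Uremic rat 27, at 5924.8 FPKM of markers, has the highest Kcnk3 and Itpr2 and the lowest Kcnmb1 of all rats, and rat 38 on vitamin D has the highest Clcn4.

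Among the calcium channel pores the 2 L-type genes moved in opposite directions. Cacna1c, the main L-type pore of arterial muscle, was at 8.09, 11.3, 9.13, 9.77 and 8.82 FPKM in control rats, 6.55, 6.29, 6.58 and 9.73 in control rats on vitamin D and 7.02, 5.88, 4.79, 3.92 and 5.61 in uremic rats. No uremic rat reached the lowest control rat, while the rats on vitamin D spanned both. The log2 difference was -0.71 (SE 0.15, limma adjusted p = 0.00506). Cacna1d, an L-type pore that opens at more negative voltage, was at 2.74, 3.14, 3.43, 4.42 and 1.81 FPKM in control rats, 4.51, 6.09, 3.25 and 4.21 in control rats on vitamin D and 11.8, 5.72, 13.3, 6.85 and 18.8 in uremic rats. Every uremic rat was above every control rat, with a uremic mean 3.64 times the control mean (log2 difference 1.51, SE 0.28, limma adjusted p = 0.00216).

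Cacna1c stood above Cacna1d in each control rat and below it in the uremic rats 9, 20, 27 and 28, on the per-length scale. The T-type pores Cacna1g and Cacna1h and the P/Q-type pore Cacna1a did not pass the test (limma adjusted p 0.434, 0.695 and 0.694). Set against smooth muscle myosin, the ratio of Cacna1c to Myh11 differed by 0.26 on the log2 scale (exact permutation p = 0.2, adjusted p = 0.298). The log2 ratio of Kcnma1 to Myh11 was -8.17 ± 0.31 (SD, n = 5) in control and -7.03 ± 0.32 (SD, n = 5) in uremic rats. It differed by 1.14 (exact permutation p = 0.0079, adjusted p = 0.0278). Kcnma1 itself differed by only 0.08, while Myh11 fell (log2 difference -1.06, limma adjusted p = 0.00184). Myh11 fell most of the 7 smooth muscle markers, and Smtn least (-0.22). Both ratios therefore depend on the choice of Myh11 as reference.

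None of the 5 calcium channel partners passed the test against control. Cacna2d1, the α2δ subunit that brings the pore to the membrane, was at 6.47, 6.04, 6.94, 6.82 and 6.86 FPKM in control rats, 9.05, 9.32, 7.55 and 10.6 in control rats on vitamin D and 7.36, 7.80, 9.58, 6.80 and 9.04 in uremic rats (limma adjusted p = 0.166). Of the β subunits, Cacnb3 was 9.40 to 14.0 FPKM in control and 7.61 to 17.6 in uremic rats, and Cacnb2 was 6.23 to 10.5 in control and 4.47 to 7.57 in uremic rats. The log2 ratio of Cacnb3 to Cacnb2 was 0.41 ± 0.39 (SD, n = 5) in control, -0.10 ± 0.35 (SD, n = 4) in control with vitamin D and 1.08 ± 0.35 (SD, n = 5) in uremic rats. It differed between uremic rats and control rats on vitamin D by 1.17 (exact permutation p = 0.0079, adjusted p = 0.0278), and between uremic and control rats by 0.67 (exact permutation p = 0.032, adjusted p = 0.0606).

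**Figure D4:**
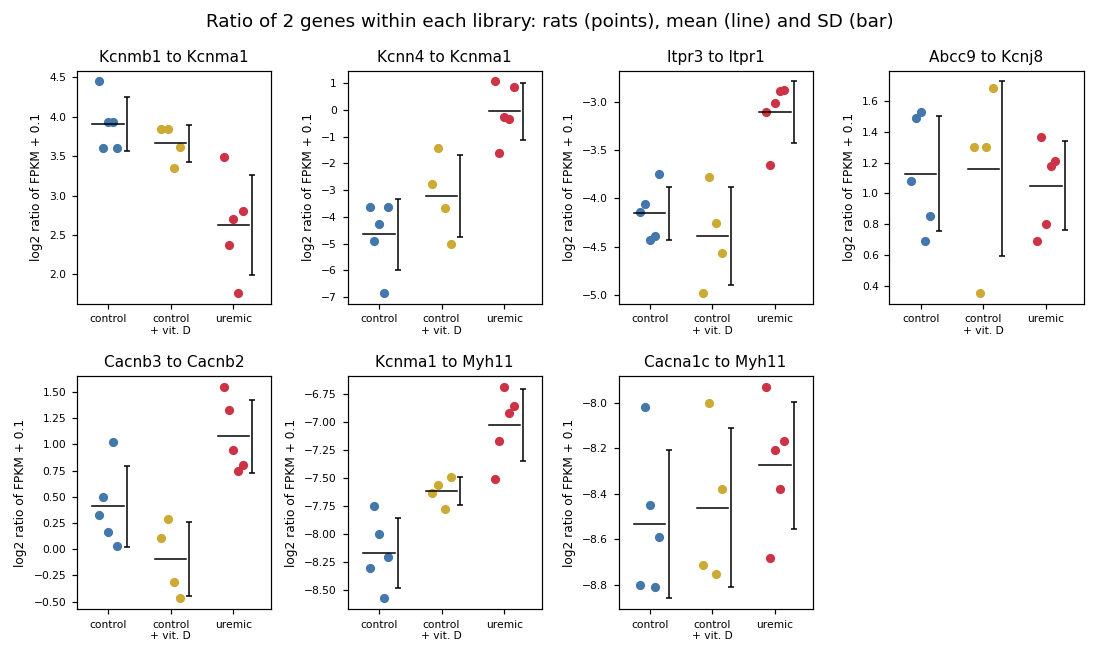
Log2 ratio of 2 genes (each FPKM + 0.1) within each library, with the group mean (line) and SD (bar), for 7 gene pairs. Kcnmb1 to Kcnma1 is lower and Kcnn4 to Kcnma1, Itpr3 to Itpr1 and Kcnma1 to Myh11 are higher in all uremic than in all control rats, while Abcc9 to Kcnj8 and Cacna1c to Myh11 overlap.

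Of the sodium channel genes, Scn2a1 (Scn2a in RefSeq), a neuronal-type pore, was at 2.70, 3.03, 3.50, 2.74 and 2.84 FPKM in control rats, 1.97, 1.44, 2.15 and 2.22 in control rats on vitamin D and 1.75, 0.966, 1.52, 1.38 and 1.37 in uremic rats. The control rats were above all others (log2 difference of uremic from control -0.73, SE 0.15, limma adjusted p = 0.00351). Of 6 nerve and Schwann cell markers tested 2 also fell, and their part was not tested. The β subunits Scn2b and Scn3b and the sodium sensor Scn7a did not pass (limma adjusted p 0.203 to 0.88).

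The 7 channels of the transient receptor potential group and Trpc4ap gave 2 rises and 1 fall, where 11.4% of all genes rose and 10.5% fell. Trpc4, a receptor-operated cation channel of endothelium and smooth muscle, was at 1.72, 2.42, 2.85, 2.26 and 1.04 FPKM in control rats, 3.72, 4.15, 3.00 and 4.85 in control rats on vitamin D and 7.63, 11.3, 8.88, 3.13 and 10.3 in uremic rats. Control rats were lowest throughout, and uremic rat 27 alone among uremic rats lay within the range of the rats on vitamin D. The uremic mean was 4.00 times the control mean (log2 difference 1.54, SE 0.28, limma adjusted p = 0.00187). Trpc6, opened by diacylglycerol, was at 1.80, 0.897, 1.55, 0.790 and 1.03 FPKM in control rats, 0.538, 1.03, 1.24 and 1.56 in control rats on vitamin D and 1.71, 2.75, 2.93, 3.12 and 2.30 in uremic rats. Uremic rat 9 lay below the highest control rat and the others above (log2 difference 0.69, SE 0.18, limma adjusted p = 0.017). It rested on 4 to 64 reads per library.

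Trpm8, the menthol and cold receptor, also present in arterial muscle, was at 3.89, 5.73, 4.73, 4.88 and 5.29 FPKM in control rats, 3.61, 2.31, 3.15 and 6.19 in control rats on vitamin D and 2.03, 0.681, 1.57, 1.87 and 2.0 in uremic rats. All uremic rats were below all other rats, and the control mean was 3.01 times the uremic mean (log2 difference -1.19, SE 0.18, limma adjusted p = 0.00063). Trpm4, a calcium-activated cation channel of myogenic tone, was at 15.2, 20.6, 17.5, 20.1 and 12 FPKM in control rats, 13.4, 15.8, 13.5 and 14.4 in control rats on vitamin D and 15.7, 15.2, 12.3, 10.8 and 16.5 in uremic rats, with overlap (limma adjusted p = 0.299). Trpc1, a subunit that joins other TRPC channels, was at 3.90, 5.30, 5.21, 4.01 and 4.92 FPKM in control rats, 6.17, 4.98, 7.11 and 4.50 in control rats on vitamin D and 5.01, 5.41, 4.54, 4.06 and 5.28 in uremic rats (limma adjusted p = 0.823).

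Trpm7, a channel with its own kinase domain, was steady at 14.8 to 20.9 FPKM over all 14 rats (limma adjusted p = 0.179). Trpv2, a channel of macrophages and muscle, was at 1.72 to 2.76 FPKM in control and 2.20 to 5.13 in uremic rats and missed the threshold (log2 difference 0.60, limma adjusted p = 0.0703). It passed without uremic rat 17 (adjusted p = 0.0344) or 27 (adjusted p = 0.0283) and with array weights (adjusted p = 0.0161). In 15 of 19 alternatives it stayed uncalled. The authors' deposited table gave it q = 0.012.

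Itpr1, the main calcium release channel by level, was at 32.8, 32.0, 31.8, 30.6 and 28.4 FPKM in control rats, 32.9, 27.0, 35.8 and 38.7 in control rats on vitamin D and 24.2, 31.4, 27.7, 26.8 and 29.6 in uremic rats (limma adjusted p = 0.301). Itpr3, an isoform of many epithelia, was at 1.77, 1.83, 1.37, 1.36 and 2.02 FPKM in control rats, 0.945, 1.87, 1.78 and 1.54 in control rats on vitamin D and 2.73, 2.41, 3.37, 3.53 and 3.92 in uremic rats, where every rat was above all rats of the other groups. The log2 difference from control was 0.64 (SE 0.15, limma adjusted p = 0.0103). The ratio of Itpr3 to Itpr1 rose from a median of 0.0538 in control rats to 0.121 in uremic rats. Its log2 difference was 1.05 against control and 1.29 against control rats on vitamin D (exact permutation p = 0.0079 and adjusted p = 0.0278 in both).

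Ryr2, the ryanodine receptor that sparks BK channels, was at 8.66, 7.39, 6.19, 8.52 and 5.32 FPKM in control rats, 9.82, 9.26, 8.15 and 9.32 in control rats on vitamin D and 9.26, 8.04, 6.50, 5.82 and 10.0 in uremic rats (limma adjusted p = 0.674). Itpr2 was at 2.66, 2.03, 3.88, 1.64 and 6.21 FPKM in control rats, 6.18, 4.80, 10.5 and 3.50 in control rats on vitamin D and 2.16, 2.08, 3.26, 10.8 and 2.29 in uremic rats. The rats high in Itpr2 were 46, 36, 37, 38 and 27, the same 5 that were high in adipocyte markers, and the part of adipose tissue was not tested. The endosomal and lysosomal exchangers Clcn3, Clcn6 and Clcn7 did not pass (limma adjusted p 0.697, 0.809 and 0.246), nor did Hcn2.

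Genes that work beside these channels were followed from a list of 38 transporters, regulators and other channels, of which 36 were in the table and 32 could be tested against control. Of these 7 rose and 10 fell, although the median difference was above 0, at 0.13. Over all genes 11.4% rose and 10.5% fell. The list was chosen with earlier results of these data known, so its counts are a description. They are not read as an excess over other genes. Of the genes of store-operated calcium entry, the pore genes Orai1 and Orai2 rose (0.91 and 1.18 on the log2 scale, limma adjusted p 0.00817 and 0.00087). Orai3 was not called (0.35, limma adjusted p = 0.113). The sensor gene Stim1 fell by 0.32 (adjusted p = 0.0457), and Stim2 was not called (-0.13, adjusted p = 0.504). For the sarcoplasmic reticulum, the calcium pump Atp2a2 fell from 184 to 248 FPKM in control to 87.6 to 120 in uremic rats, and its inhibitor Pln rose from 76.5 to 106 to 113 to 250 FPKM (limma adjusted p 4.8e-05 and 0.00353). Jph2, which tethers the reticulum to the cell membrane, fell by 1.10 (adjusted p = 8.2e-05).

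The calcium-activated chloride channel Ano1, which depolarises smooth muscle, was 28.6 to 42.2 FPKM in control and 61.7 to 179 in uremic rats (log2 difference 1.76, limma adjusted p = 0.00025). Rem1, a small GTPase that holds back L-type channels, rose by 1.19 while its relative Rrad fell by 0.61 (adjusted p 0.00031 and 0.0153). The plasma membrane calcium pumps went apart, with Atp2b1 up by 0.50 and Atp2b4 down at -0.57 (adjusted p 0.0283 and 0.00961). Besides Abcc9, also Abcc8 and Mrvi1 fell (limma adjusted p 0.00674 and 0.0254).

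**Figure D5:**
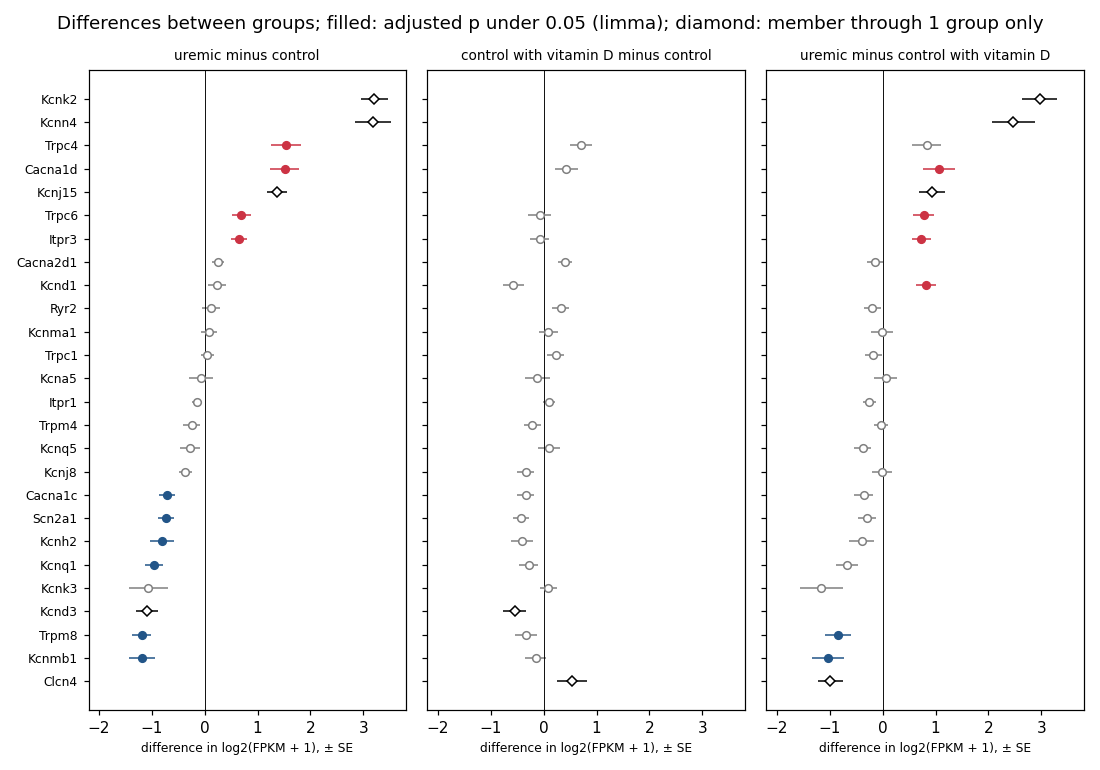
Difference in log2(FPKM + 1) ± SE between groups for members called in a comparison and 10 further vascular channels. Filled circles passed an adjusted p under 0.05 in limma, open circles did not, diamonds are members that reached the threshold only through 1 group and have no test shown, and a gene without a point was not tested. In the middle panel no point is filled.

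For vitamin D alone, control rats on vitamin D were compared with control rats. Of 52 members tested none was called, by limma here or by voom on the recovered reads. An unadjusted limma p under 0.05 was found for 12 of the 52, against 1782 of all 9693 genes, so the members were near the background. The smallest adjusted p of a member was 0.0854. Over all 9693 genes 0.0103% rose and 0.124% fell (1 and 12 genes), so hardly any gene was called in this fit. That depended on the setting and on single rats. Array weights gave 264 genes higher and 165 lower. Leaving out control rat 46 gave 233 and 152, and leaving out rat 39 gave 263 and 130. The groups did not overlap in 6 members (Trpc4, Cacna2d1, Cacnb1, Kcnd1, Scn3b and Scn2a1), against 5.72% of all genes. Scn3b, a sodium channel β subunit, was at 3.42, 2.42, 2.72, 1.47 and 2.78 FPKM in control rats and 0.290, 1.11, 0.508 and 1.22 in control rats on vitamin D (log2 difference -1.01, SE 0.23, limma adjusted p = 0.0854), and passed only without rat 39 (adjusted p = 0.0325) or with array weights (adjusted p = 0.0325). In uremic rats it was at 1.51, 3.43, 0.841, 1.40 and 1.31 FPKM. Scn3b rested on 3 to 40 reads per library. Trpc4, whose values are given above, differed by 0.71 (SE 0.21, limma adjusted p = 0.129). In the authors' deposited table Trpc4, Itpr2 and Cacna1d had q values of 0.0114, 0.000653 and 0.0481 in this comparison. The log2 ratio of Kcnma1 to Myh11 was 0.55 higher on vitamin D (exact permutation p = 0.024, adjusted p = 0.05, not under the threshold). Kcnma1 itself differed by 0.09 and Myh11 by -0.46, neither called.

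With vitamin D in both groups, uremic rats were compared with control rats on vitamin D, though equal dosing is not stated. Among the 49 members that pass without any one group, 4 rose (Cacna1d, Trpc6, Itpr3 and Kcnd1) and 3 fell (among them Kcnmb1 and Trpm8), while 7.19% of all 9916 genes rose and 6.03% fell. With the members that needed 1 group to pass, 55 were tested, and 7 were called higher (also Kcnk2, Kcnn4 and Kcnj15) and 4 lower (also Clcn4). For Kcnk2, Kcnn4, Kcnj15 and Clcn4 the direction is in part set by the choice. Scaling to the same total changed the members' split to 5 rises and 6 falls. The groups did not overlap in 13 members, against 12.7% of all genes. The comparison shares its uremic rats with the one above, so the lists are not independent. The adipocyte markers differed between these groups as given above, and their part was not tested.

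The 7 called among those 49 each lost the call when single rats were left out. Kcnmb1, at -1.04 (SE 0.30, limma adjusted p = 0.0398), was lost without rat 17, 20, 28, 36, 38 or 39 (adjusted p 0.0528 to 0.116). Cacna1d, at 1.07 (adjusted p = 0.0353 by limma), was lost without rat 9, 20, 28, 36, 38 or 39 (adjusted p 0.0644 to 0.105). Trpm8 (-0.85, limma adjusted p = 0.0472) was lost without any rat other than 27 and 37 (adjusted p 0.0658 to 0.108). Trpc6 (0.78, limma adjusted p = 0.0273) was lost without 17, 20, 28, 36 or 38 (adjusted p 0.0508 to 0.0819). Itpr3 (0.73, limma adjusted p = 0.0236) was lost without 20, 28 or 36 (adjusted p 0.0546 to 0.0737). With no filter on low values Kcnmb1, Cacna1d and Trpm8 were not called (adjusted p 0.0597 to 0.0683), nor were Itpr3 and Trpc6 with libraries scaled to the same total (adjusted p 0.052 and 0.0539), nor Trpm8 with a pseudocount of 0.1 or 0.5 (adjusted p 0.0599 and 0.0508).

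Kcnd1, an A-type potassium channel called only here, was at 1.93, 1.77, 1.55, 1.07 and 1.07 FPKM in control rats, 0.506, 1.04, 0.665 and 0.427 in control rats on vitamin D and 2.47, 2.29, 1.76, 1.32 and 1.80 in uremic rats. The rats on vitamin D were lowest (log2 difference of uremic from them 0.82, SE 0.19, limma adjusted p = 0.0169), and without rat 36 the call was lost (adjusted p = 0.0545). In the rats on vitamin D, Kcnd1 rested on only 5, 8, 10 and 4 recovered reads. Clcn4, an endosomal chloride-proton exchanger, was at 0.663, 0.506, 1.55, 0.814 and 2.50 FPKM in control rats, 2.25, 1.33, 3.31 and 1.64 in control rats on vitamin D and 0.254, 0.187, 0.905, 1.00 and 0.494 in uremic rats. Rats 46, 36 and 38 had the highest Clcn4 and were among the 5 rich in adipocyte markers, and the brown fat markers Ucp1, Cidea and Dio2, 3 of the 5 tested, were lower in uremic rats in this comparison. The part of adipose tissue was not tested.

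Kcnk3 differed by -1.16 in this comparison (SE 0.41, limma adjusted p = 0.0817) and by -1.59 without uremic rat 27 (adjusted p = 0.000498). It also passed in 1 fit of all 3 groups (adjusted p = 0.0374) and with array weights (adjusted p = 0.00997). Kcnk3 stayed uncalled here in 16 of 20 alternatives. Trpc4 differed by 0.83 (SE 0.28, limma adjusted p = 0.0783) and passed without uremic rat 27 (adjusted p = 0.00284) and with array weights (adjusted p = 0.0111). In 16 of 19 alternatives Trpc4 stayed uncalled. Cacna1c and Kcnq1, called against control, differed from control rats on vitamin D by -0.36 and -0.68 (limma adjusted p 0.211 and 0.0537). Kcnq1 passed with libraries scaled to the same total (-0.80, adjusted p = 0.0239), in 1 fit of all 3 groups (adjusted p = 0.0238) and with voom on recovered reads (adjusted p = 0.0493). It stayed uncalled in 17 of 20 alternatives. Whether the effects of the 2 comparisons differ is the comparison of the 2 control groups, in which neither gene passed (adjusted p 0.266 and 0.431).

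The authors' deposited table gave q under 0.05 to 12 members for uremic against control, 5 higher and 7 lower, and 10 of them were also called here. Kcnk3 and Trpv2 were in the authors' set alone, and Itpr3, Kcnd3, Kcnj15, Scn2a1 and Trpc6 were called here alone. The q of these 5 is 1 in the authors' deposited table, as it is for 24 of the 57 members. For uremic rats against control rats on vitamin D the authors' deposited table had 6 higher and 8 lower members, 6 of them called here. The matching shares of all genes by the authors' q are not given here. These counts therefore do not say whether the channels differ from other genes.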

How the data were processed

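RNA was measured in 14 aortas, 1 library per rat. The tools and build behind the deposited values were cutadapt 1.3, TopHat2 2.0.10, Cufflinks 2.1.1, Cuffdiff and rn5, per the submitters' processing notes, which give no order; settings are not given in the sources used here. The deposited table gives 1 value per gene and library with no unit named, read here as FPKM after those tools, and the authors' q-values for 3 pairs of groups.

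The members and gene lists were chosen with earlier results of these data known. A gene entered a test when 4 or more libraries of the groups compared had 1 FPKM or more. Tests were made on log2(FPKM + 1), so that fold changes of low genes are understated, with limma 3.58.1 in R 4.3.3 (lmFit, eBayes with a trend), 2-sided, adjusted over all genes. Folds are ratios of group means. Every rat's value is given for members called in any comparison and for vascular channels named in a list. Within-library ratios used FPKM + 0.1 and an exact permutation test over rats. The limma fit was tested on simulated data. Tables used Python 3.11.15.

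Of 11294 genes measured in 8 or more libraries, 10871 (96.3%) had values that were whole multiples of 1 step, within a tolerance of 0.1 read, against 0% of 1000 genes after shuffling. Whole reads recovered this way cover 49 members; the total depth of the libraries beyond these genes is unknown, and no counting interval is given. The alternatives were other pseudocounts, filters and scalings, 1 fit of 3 groups, array weights, no trend, voom on recovered reads and leaving out each rat. Promoters and their symbols are from RefSeq, build GRCr8. A spreadsheet had changed 25 gene names to dates; these are not named. Some genes are not reported here.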

Additional observations from a re-analysis of the deposited data

Results flagged for a closer look

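A rat counted as an outlier of its group where the distance to its neighbour, divided by the spread from lowest to highest rat, was beyond the 95% limit of Dixon's test. This held in 12 of 164 groups of members (7.32%), where chance marks about 1 in 20. Uremic rat 27 was marked for Kcnmb1 (37.3 FPKM, the other uremic rats 88.0 to 107), Kcnk3 (89.6, the others 15.8 to 22.8) and Itpr2 (10.8, the others 2.08 to 3.26). Uremic rat 17 was marked for Scn3b (3.43 FPKM, the others 0.841 to 1.51), Kcnj14 (2.52, the others 1.18 to 1.56) and Kcnk1 (0.959, the others 1.27 to 1.34).

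Control rat 41 was marked for Kcnk1 (3.97 FPKM, the other control rats 0.743 to 1.39), Kcne3 (1.24, the others 0.381 to 0.623) and Cacna2d2 (1.03, the others 1.34 to 1.43). Among control rats on vitamin D, rat 37 was marked for Kcnj8 (31.1 FPKM, the others 17.8 to 18.8), rat 39 for Cacna1c (9.73, the others 6.29 to 6.58) and rat 36 for Hcn2 (0.898, the others 0.316 to 0.394). The difference of Kcnmb1 between uremic and control rats was still called without rat 27, and that of Kcnk3 changed call without it.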

How the results depend on the processing

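For uremic against control, the counts of 7 members higher and 8 lower stayed within 1.5 times under all alternatives except a filter of at least 5 FPKM (4 and 5) and, for the rises, voom on recovered reads (4), which lack 8 of the 57 members; leaving out 1 rat gave 7 to 8 and 7 to 9. For control with vitamin D against control, array weights gave 1 lower member, and leaving out 1 rat gave 0 to 1, the 1 being Scn3b without rat 39. For uremic against control with vitamin D, the counts of 7 and 4 were less stable: 3 and 1 at 5 FPKM, 2 lower with no filter, 7 lower in 1 fit of all 3 groups, and 2 to 9 higher and 0 to 6 lower when 1 rat was left out. Leaving out the rat richest in adipocyte markers of each group, chosen after seeing the data, gave 8 and 9 members in the first comparison, where Trpc6 was lost (adjusted p = 0.0614), and 4 higher and 3 lower in the last. All these counts include the members that needed 1 group to pass, whose direction is in part set by the choice. Same-total scaling moved the median of all genes by about -0.10 and -0.12 in the 2 comparisons with uremic rats. Kcnma1 and Trpc1, not called, changed sign with it (-0.03 and -0.04), and leaving out 1 rat gave -0.01 to 0.18 for Kcnma1 and -0.20 to 0.03 for Kcna5, which was 0.02 under voom.

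With 1 rat fewer the exact tests of ratios can reach only larger p-values, so some calls were lost by construction, while the directions of called ratios held. The ranges were -1.50 to -1.07 for Kcnmb1:Kcnma1 and 0.98 to 1.18 for Itpr3:Itpr1 against control, 1.09 to 1.49 for Itpr3:Itpr1 and 1.04 to 1.3 for Cacnb3:Cacnb2 against control with vitamin D, and 0.55 to 0.82 for Cacnb3:Cacnb2 against control, called without control rat 44. Ratios that were not called changed sign: Abcc9:Kcnj8 (-0.19 to 0.02, -0.14 to 0.30 and -0.38 to 0.06 in the 3 comparisons) and Cacna1c:Myh11 for vitamin D against control (-0.08 to 0.20). No paired analysis was possible because no rat number occurs in more than one group.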
